A study of Mus musculus with 9 samples.

Results

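The genes described here are 10 markers of the inner retina, 6 of bipolar cells (Grm6, Pcp2, Prkca, Cabp5, Vsx1 and Isl1), 2 of amacrine cells (Gad1 and Slc6a9) and 2 of ganglion cells (Thy1 and Nefl). They were chosen by name: every probe that is no control and whose gene name in the scanner output equals 1 of these symbols was taken. All 10 were found, with 13 probes, among 39429 probes of 31829 gene names. The series holds 9 dual-colour Agilent arrays of the whole mouse genome, 3 each of laser-dissected choroid (CH), retinal pigment epithelium (RPE) and photoreceptors (PR). The animals were female C57BL/6 mice (substrain C57BL/6JOlaHsd in the study's methods), untreated and with no allele or transgene named, and every sample came from 1 whole eye. Per the labels they were 6 months old with a range of 2 weeks, while the study's methods give a lower age. The study's methods took the PR from thicker cryosections than the RPE and the CH, and removed the RPE before the CH was cut. Amplified RNA of a tissue, labelled with Cy5, was set on each array against Cy3-labelled reference RNA from mouse choroid and RPE, and no dyes were swapped. The labels do not say whether the eyes of the 3 tissues came from the same mice, so the p-values measure the spread between these arrays.

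The retina is built in layers. Rods and cones, whose cell bodies form the outer nuclear layer, pass their signal to bipolar cells. ON bipolar cells sense the glutamate that photoreceptors release through a metabotropic receptor, and rod bipolar cells are the ON type that serves rods. Amacrine cells are inhibitory interneurons of the inner retina that release GABA or glycine, and ganglion cells send the output of the retina through the optic nerve. The choroid and the RPE lie on the other side of the photoreceptors. The choroid holds vessels, fibroblasts, pigment cells, leukocytes and the nerves that supply them, and no retinal neurons.

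A value is the log2 ratio of Cy5 to Cy3 after background correction and loess normalization. Loess centres the ratios of each array along spot brightness, so 0 means the usual ratio for spots of that brightness on that array. It does not mean equal raw signals, and a value 1 higher means double the ratio. Pcp2 on PR replicate 3 was at -0.45 with background-subtracted signals of 70498 in Cy5 and 29036 in Cy3. A difference between tissues is the difference of their mean log2 ratios in a linear model fitted to all 9 arrays with limma. A gene was called when its fold change (FC) was above 2.5 and its Benjamini-Hochberg (B-H) adjusted p-value, taken over all probes, was below 0.01. PR minus RPE and PR minus CH share the PR arrays. Where a gene had 2 probes, the brighter one is the reported probe and the other is given beside it. All 13 probes were well above background in both channels on all 9 arrays and none was saturated. Per array, 62.1% to 91.7% of all probes stood well above background in Cy5, with RPE replicate 2 at the top. The PR dissections carried their own markers: all 11 rod genes and all 9 cone genes of the lists used here were called higher in the PR than in both other tissues. Of 8 RPE markers, 7 were called higher in the RPE than they were in the PR and 6 higher than in the CH, and all 6 fibroblast genes were called higher in the CH than in both other tissues. Of the 11 rod genes, 9 were saturated in Cy5 on at least 1 PR array. In whole dissected layers, fewer cells of a type and less RNA per cell cannot be told apart.

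The arrays read each gene through probes of 60 bases, and where a probe lies decides what it can report. The ends of the probes for Grm6, Pcp2 and Thy1 are shown because all 3 hold the hexamer AATAAA (in capitals, sense strand), the sequence that directs cleavage and polyadenylation of a transcript, and so read the 3′ end of the message. The hexamer was present in 12.6% of all probes.
Grm6, last 30 bases: catggtctgAATAAAggttttcttgcactt
Pcp2, last 30 bases: cctgaaaacAATAAAacacttggcactagc
Thy1, last 30 bases: aggaaagaaaactgcacAATAAAaccaagc
The probes of Cabp5 are shown because they differ in kind and, as given further on, in their values. The dimmer one reads as 20 codons with no stop in 1 frame. The brighter one ends in a run of 28 bases of the repeat GA (in capitals), and 6 of the 39429 probes (0.0152%) hold 10 or more such units in a row.
Cabp5, dimmer probe: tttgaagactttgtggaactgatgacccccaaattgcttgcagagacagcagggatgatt
Cabp5, brighter probe, last 30 bases: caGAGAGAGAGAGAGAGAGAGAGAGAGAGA

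Of the 6 bipolar genes, 3 were called higher in the PR against the RPE (Grm6, Pcp2 and Prkca), and these 3 genes were also called higher in the PR against the CH. Over all 31829 genes, 5.19% were called higher in the PR against the RPE and 6.01% against the CH. On all 3 PR arrays, 5 of the 6 bipolar genes lay above all 3 RPE arrays and 4 above all 3 CH arrays, against 29.7% and 33.6% of the 31346 genes with a value on every array. Among the amacrine and ganglion genes, Slc6a9, Thy1 and Nefl lay below the RPE and Slc6a9 and Thy1 below the CH on all PR arrays, against 29.1% and 28.8% of these genes. The median difference of the 6 bipolar genes was 1.35 for PR minus RPE, against 0.00 for all genes, and 1.26 for PR minus CH, against 0.05. No bipolar gene was called lower in the PR, and none was called between the RPE and the CH, where 0.179% of all genes were called higher in the RPE and 1.74% higher in the CH. Between the RPE and the CH limma called 0 of the 10 genes, and 2 of them (Slc6a9 and Thy1) had an unadjusted p below 0.05. The size of the PR values differed between the PR arrays, and PR replicate 2 was the highest of the 3 for all 6 bipolar genes. Without PR replicate 2, the counts called were 2 against the RPE (Grm6 and Prkca) and 0 against the CH.

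**Figure D1:**
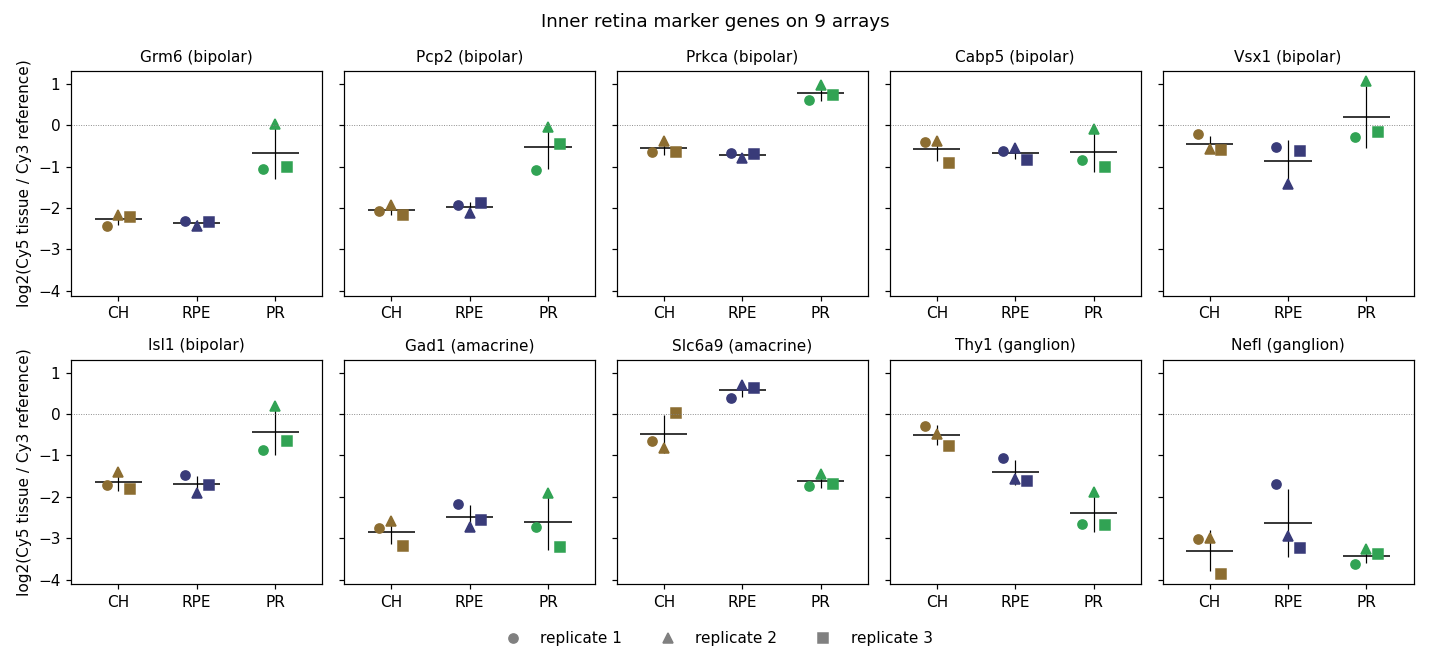
The log2 ratio of tissue (Cy5) to reference (Cy3) of the reported probe of each of the 10 genes in choroid (CH), RPE and photoreceptors (PR). Each point is 1 array, its shape gives the replicate number, the horizontal bar is the mean and the vertical line the SD of 3 arrays. Grm6, Pcp2, Prkca and Isl1 lay higher on every PR array than on any CH or RPE array, and PR replicate 2 (triangle) was the highest PR array in all 10 panels.

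Grm6 encodes mGluR6, the glutamate receptor of ON bipolar dendrites (NM_173372, probe at chr11:50679649-50679708 on mm9, plus strand). Its log2 ratio was -2.44, -2.16 and -2.22 on the CH arrays, -2.32, -2.44 and -2.34 on the RPE arrays and -1.06, 0.04 and -1.01 on the PR arrays. Every PR array lay above all 6 others, and PR replicate 2 lay about 1 unit above the other PR arrays. The difference was 1.69 for PR minus RPE (SE 0.25, FC 3.23, adjusted p = 0.000294, limma) and 1.60 for PR minus CH (SE 0.25, FC 3.03, adjusted p = 0.00038). Without PR replicate 2 the differences were 1.33 and 1.24, and the second fell under an FC of 2.5.

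Pcp2 encodes a Purkinje cell protein that binds G proteins and that rod bipolar cells also contain (NM_001129803, probe at chr8:3623377-3623436, minus strand). It was at -2.08, -1.92 and -2.16 in the CH, at -1.93, -2.11 and -1.88 in the RPE and at -1.09, -0.04 and -0.45 in the PR. The groups did not overlap, and the spread was larger in the PR (SD 0.53) than in the CH (SD 0.13) or the RPE (SD 0.12). PR minus RPE was 1.45 (SE 0.22, FC 2.73, adjusted p = 0.000341, limma) and PR minus CH was 1.53 (SE 0.22, FC 2.88, adjusted p = 0.000208). Without PR replicate 2 these were 1.21 and 1.28, below the FC threshold in both comparisons.

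Prkca encodes protein kinase C alpha, a kinase used to stain rod bipolar cells and also made by many other cell types. Its reported probe (NM_011101, chr11:107794726-107794785, minus strand) was at -0.65, -0.37 and -0.64 in the CH, at -0.68, -0.80 and -0.70 in the RPE and at 0.61, 0.98 and 0.72 in the PR. It was the bipolar gene with the smallest spread in the PR (SD 0.19, n = 3), and PR replicate 2 was still the highest. PR minus RPE was 1.49 (SE 0.12, FC 2.82, adjusted p = 4.09e-06, limma). PR minus CH was 1.32 (SE 0.12, adjusted p = 8e-06) with an FC of 2.5 after rounding, so close to the threshold that the call was lost without CH replicate 1 (1.27), CH replicate 3 (1.28) or PR replicate 2 (1.22).
The other Prkca probe starts 4861 bases away in genome coordinates (chr11:107799587-107799646). It was higher in the PR as well, by 0.88 against the RPE (adjusted p = 0.000154, limma) and 0.89 against the CH (adjusted p = 0.00012), with FCs of 1.84 and 1.85 that lay under the threshold. With the median of the probes of each gene in place of the brightest probe, Prkca was called in neither comparison (1.19 and 1.11).

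Isl1 encodes a LIM homeodomain factor of ON bipolar cells, which cholinergic amacrine and ganglion cells also contain (NM_021459, chr13:117088774-117088833, minus strand). It was at -1.71, -1.39 and -1.81 in the CH, at -1.48, -1.90 and -1.71 in the RPE and at -0.88, 0.20 and -0.64 in the PR, again with all PR arrays above the 6 others and PR replicate 2 on top. PR minus RPE was 1.26 (SE 0.25, adjusted p = 0.002, limma) and PR minus CH was 1.20 (SE 0.25, adjusted p = 0.00243). The FCs of 2.39 and 2.30 lay just under 2.5, so Isl1 was not called. Its probe is printed on 10 spots of every array, of which 7 to 10 were used, and the SD over these spots was between 0.03 and 0.10 within an array. On PR replicate 2 the spots lay between 0.15 and 0.26 and on PR replicate 1 between -0.95 and -0.74. This spread over spots is within 1 sample and does not measure the spread between samples.

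Vsx1 encodes a homeodomain factor of cone bipolar cells (NM_054068, chr2:150506482-150506541, minus strand). It was at -0.22, -0.58 and -0.59 in the CH, at -0.52, -1.43 and -0.62 in the RPE and at -0.28, 1.07 and -0.16 in the PR. PR replicate 2 stood far above every other array, while PR replicate 1 lay within the range of the CH and PR replicate 3 just above it. PR minus RPE was 1.07 (SE 0.35, adjusted p = 0.0294, limma) and PR minus CH was 0.67 (95% interval -0.12 to 1.47, adjusted p = 0.14), and neither was called.

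Cabp5 encodes a calcium-binding protein of rod bipolar cells and of some cone bipolar cells. The brighter probe, which ends in the GA repeat (NM_013877, chr7:13993821-13993880, plus strand), was at -0.41, -0.39 and -0.92 in the CH, at -0.63, -0.54 and -0.83 in the RPE and at -0.84, -0.10 and -1.0 in the PR. Its groups overlapped, with differences of 0.02 for PR minus RPE (95% interval -0.50 to 0.54) and -0.07 for PR minus CH (95% interval -0.60 to 0.45).
The dimmer probe, which reads as codons (chr7:13988674-13988733), was at -1.76, -1.79 and -2.17 in the CH, at -1.62, -1.83 and -1.64 in the RPE and at -1.70, 0.06 and -0.93 in the PR. PR replicates 2 and 3 lay above every CH and RPE array and PR replicate 1 lay among them. Here the difference was 0.84 for PR minus RPE (SE 0.35, adjusted p = 0.0732, limma) and 1.05 for PR minus CH (SE 0.35, adjusted p = 0.0286), and neither was called. The probes of this gene thus differed in what they showed, and the array holds no further probe of it.

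**Figure D2:**
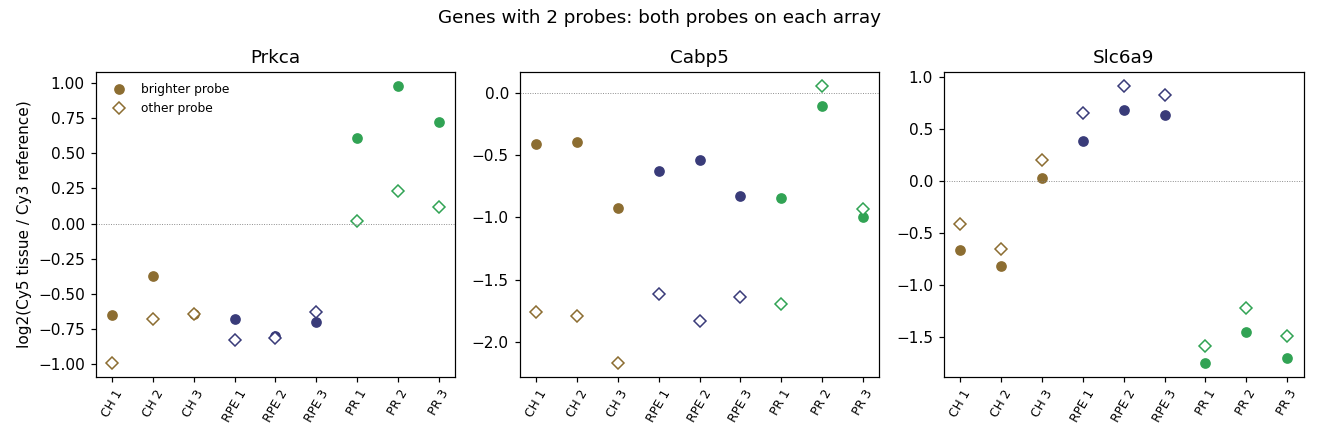
The log2 ratio of tissue to reference on each of the 9 arrays for the genes with 2 probes, with filled circles for the brighter probe and open diamonds for the other, in the colours of the tissues (CH brown, RPE blue, PR green). Both Prkca probes were higher on every PR array than on any other, the Slc6a9 probes ran side by side, and the Cabp5 probes lay apart in the CH and the RPE and came together on PR replicates 2 and 3.

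The other bipolar genes gave a mixed picture. Of a list of 19, 3 were called higher and 4 lower in the PR against the RPE, with a median difference of 0.60, and 3 were called higher and 3 lower than in the CH, with a median of 0.87. Gnb3, a G protein beta subunit that ON bipolar cells share with cones, rose by 1.92 against the RPE (adjusted p = 1.14e-06, limma) and by 2.32 against the CH (adjusted p = 2.38e-07). Also called higher in both were Gng13 (1.79 and 1.80, adjusted p = 0.000581 and 0.000494, limma) and Bhlhe23 (1.35 and 1.38). Bhlhe23 was well above background in Cy5 on all 3 PR arrays, 1 RPE array and no CH array, so its differences rest partly on values near background. The largest differences of the list ran the other way. Trpm1, the channel that mGluR6 closes in ON bipolar cells and a gene also of pigment cells, was at -5.08, -5.45 and -5.22 in the PR against -2.32 to -1.74 in the RPE and -1.08 to -0.98 in the CH, a difference of -3.14 for PR minus RPE (adjusted p = 1.75e-07) and -4.22 for PR minus CH (adjusted p = 1.98e-08). Grik1, a kainate receptor subunit of OFF bipolar cells, differed by -3.90 and -3.04 (adjusted p = 6.95e-07 and 3.17e-06), and was well above background in Cy5 on only 1 of the 3 PR arrays. Without PR replicate 2, 2 genes of this list were called higher in the PR and 4 lower in each comparison, with medians of 0.20 against the RPE and 0.58 against the CH. Called higher were 5 and 8 genes with the scanner's own log ratio, and 9 and 10 with the slide as a block, a fit described further on.

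The amacrine genes did not follow the bipolar genes. Neither was called higher in the PR, and Slc6a9 was called lower in the PR against the RPE, as were 10.9% of all genes.
Gad1 encodes glutamate decarboxylase 67, which makes GABA (NM_008077, chr2:70439699-70439758, plus strand). It was at -2.76, -2.59 and -3.18 in the CH, at -2.18, -2.73 and -2.55 in the RPE and at -2.74, -1.91 and -3.21 in the PR. The 3 tissues overlapped, and the differences were -0.14 for PR minus RPE (95% interval -0.81 to 0.54), 0.22 for PR minus CH (95% interval -0.45 to 0.90) and 0.36 for RPE minus CH (95% interval -0.32 to 1.03). Its background-subtracted Cy5 signal was between 3905 and 6522 over the 9 arrays, against 14245 to 16521 in the Cy3 channel of the reference. Because the dyes were not swapped, a level relative to the reference is open to dye bias. In a difference between tissues this bias would be on both sides.

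Slc6a9 encodes GlyT1, the glycine transporter of glycinergic amacrine cells, which many other cell types also make. Its probes (NM_008135, chr4:117541851-117541910 and chr4:117541842-117541901, plus strand) are offset by 9 bases and share 51, of which the first 30 are shown because the probes are for this reason not independent readings.
Slc6a9, stretch in both probes: gtgcagaactagggttttaaagtccgtagg
The reported probe was at -0.66, -0.82 and 0.03 in the CH, at 0.39, 0.69 and 0.64 in the RPE and at -1.75, -1.45 and -1.70 in the PR. The 3 tissues did not overlap, in the order RPE, CH, PR. PR minus RPE was -2.20 (SE 0.20, FC 4.61, adjusted p = 1.01e-05, limma), which was called. PR minus CH was -1.15 (adjusted p = 0.000824) and RPE minus CH was 1.06 (adjusted p = 0.00538), with FCs of 2.22 and 2.08 that lay under the threshold. The other probe gave -2.24, -1.15 and 1.09.

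Of 16 other amacrine genes, none was called higher in the PR, 1 was called lower than in the RPE (Nos1, neuronal nitric oxide synthase, adjusted p = 8.8e-06, limma) and 1 lower than in the CH (Tfap2a, a transcription factor also of other ectodermal cells, by -2.06, adjusted p = 3.67e-05). Nos1 was not well above background on any PR array, so the data give only a bound, at least 2.63-fold higher in the RPE. The bound was taken from the mean log2 Cy5 signals after loess and Aquantile and the lowest signal well above background. All tissues were labelled with Cy5, so a dye bias would be on both sides of it. The median difference of the 16 genes was -0.12 for PR minus RPE and 0.19 for PR minus CH. The first was positive, between 0.08 and 0.16, with median centring, the scanner's own log ratio, the Cy5 channel alone or the authors' series table in place of loess. Without PR replicate 2 the medians were -0.36 and 0.07. With the slide as a block they were 0.42 and 0.55, and 2 of the 16 were called higher in the PR against the CH. The log2 ratio was below 0 on all 9 arrays for 12 of the 16, against 12.5% of all genes.

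The ganglion cell genes were also not called higher in the PR. Thy1, a surface glycoprotein of ganglion cells that is also made by T cells, fibroblasts and peripheral neurons (NM_009382, chr9:43856591-43856650, plus strand), was at -0.29, -0.48 and -0.78 in the CH, at -1.06, -1.57 and -1.61 in the RPE and at -2.65, -1.88 and -2.67 in the PR. The 3 tissues did not overlap, in the order CH, RPE, PR. PR minus CH was -1.89 (SE 0.24, FC 3.70, adjusted p = 7.41e-05, limma) and was called, as were 12.7% of all genes in that direction. PR minus RPE was -0.99 (adjusted p = 0.00558) and RPE minus CH was -0.89 (adjusted p = 0.0229), both under an FC of 2.5.
Marker lists of other cells of the choroid also had their lowest means in the PR. The mean log2 ratio of 6 fibroblast genes ran from 1.27 to 1.69 in the CH, from -1.14 to -0.79 in the RPE and from -4.99 to -4.41 in the PR, and all 6 were called lower in the PR than in the CH. For 6 T cell genes the means were 0.35 to 0.83 in the CH, 0.03 to 0.55 in the RPE and -0.86 to -0.63 in the PR, and 3 of them were called lower in the PR than in the CH. Those 3 (Cd3d, Cd3g and Cd2) were not well above background on any PR array, so the data give only bounds. By the same kind of bound as for Nos1, they were at least 2.88-, 3.24- and 4.42-fold higher in the CH. The other 3 were well above background in Cy5 on all 9 arrays and were not called. For 10 genes of Schwann cells and peripheral nerve the means were 0.96 to 1.21 in the CH, 0.19 to 0.28 in the RPE and -0.96 to -0.68 in the PR, with 5 called lower in the PR than in the CH. On PR replicate 2, where Thy1 was the highest of the PR arrays, each of these list means was the lowest (-4.99, -0.86 and -0.96). The T cell means also overlapped between the CH and the RPE, where the Thy1 values did not. The part of these cells in the result for Thy1 was not tested.

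Nefl, the light neurofilament chain of axons (NM_010910, chr14:68705638-68705698, plus strand), was at -3.03, -2.99 and -3.87 in the CH, at -1.69, -2.95 and -3.24 in the RPE and at -3.63, -3.27 and -3.38 in the PR. It was far below the reference on every array, and RPE replicate 1 lay above all others. The differences were -0.80 for PR minus RPE (95% interval -1.64 to 0.04), -0.13 for PR minus CH (95% interval -0.97 to 0.71) and 0.67 for RPE minus CH (95% interval -0.17 to 1.51), and none was called. The background-subtracted Cy5 signal was between 2112 and 10441 and the Cy3 signal of the reference between 12323 and 20191.
A log2 ratio below -1 on all 9 arrays was found for Gad1 and Nefl among the 10 genes and for 2.12% of all genes. Of 16 other ganglion cell genes, none was called higher in the PR. Rbpms, an RNA-binding protein of ganglion cells and of smooth muscle, was called lower in the PR than in the RPE (-2.91, adjusted p = 2.61e-07, limma) and than in the CH (-3.65, adjusted p = 4.33e-08), and Stmn2, a stathmin of growing neurons, lower than in the CH (-1.61, adjusted p = 3e-05). The median was -0.64 for PR minus RPE and -0.17 for PR minus CH, the latter 0.09 with the scanner's log ratio, and 1 gene was called higher in the PR under each scaling named above for the amacrine list. Of these 16 genes, 13 were below 0 on all 9 arrays.

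**Figure D3:**
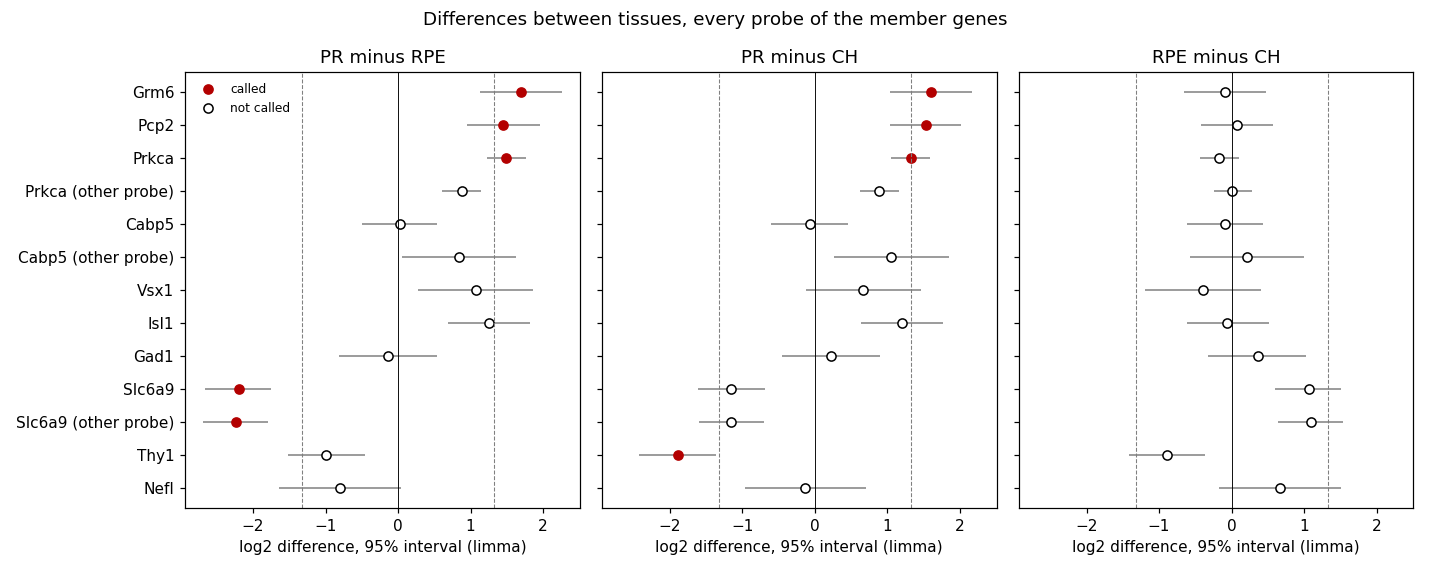
Log2 differences between tissues for all 13 probes of the 10 genes, with the 95% interval of the limma fit, for PR minus RPE, PR minus CH and RPE minus CH. Filled points were called, open points were not, and dashed lines mark an FC of 2.5. The called points right of 0 are Grm6, Pcp2 and Prkca, those left of 0 are both Slc6a9 probes against the RPE and Thy1 against the CH, and no probe was called between the RPE and the CH.

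PR replicate 2 was the highest of the 3 PR arrays for all 10 genes, against 36.8% of all genes, and lay more than 0.5 above both other PR arrays for 6 of the 10 (Grm6, Vsx1, Isl1, Cabp5, Gad1 and Thy1), against 4.27% of all genes. Lists of other retinal cells set beside these values did not all show this. The mean log2 ratio of the 6 bipolar genes was -0.59, 0.36 and -0.42 on PR replicates 1, 2 and 3, and it ran from -1.39 to -1.14 in the CH and from -1.54 to -1.26 in the RPE. The list of 19 other bipolar genes had means of -1.09, -0.42 and -0.84 on the PR arrays, and 16 of them were highest on PR replicate 2. Its means ran from -0.89 to -0.81 in the CH and from -0.80 to -0.59 in the RPE, and of the PR means only that of PR replicate 2 lay above these. The means take in Trpm1, Grik1 and Irx5, called lower in the PR in both comparisons, by -3.14, -3.90 and -1.77 against the RPE. In each comparison 3 genes of the list were called higher in the PR. The median differences of the list, which single genes move less, were 0.60 for PR minus RPE and 0.87 for PR minus CH. The list of other amacrine genes had means of -1.61, -1.09 and -1.80 on the PR arrays, and 13 of its 16 genes were highest on PR replicate 2. Müller glia genes, from the radial glia that span the whole retina, had means of -2.81, -1.78 and -2.45, and 8 of 8 were highest on PR replicate 2, although 4 of the 8 were called lower in the PR than in the RPE and 5 lower than in the CH. Those called lower in both were Rlbp1 and Sox9, which RPE cells also make, and Glul and Dkk3. Against the RPE these genes differed by -5.35, -4.88, -2.26 and -1.40. Gfap (-1.12), Aqp4 (0.42), Slc1a3 (0.69) and Kcnj10 (0.41) were not called against the RPE. Against the CH, Gfap was called lower as well (-1.77), and Aqp4, Slc1a3 and Kcnj10, at 0.58, 0.98 and -0.32, were not called. Without Rlbp1 the means on the PR arrays were -2.70, -1.63 and -2.37, against -1.30 to -0.68 on the CH and RPE arrays. Sox9 was kept in these means, at -3.62, -2.71 and -3.44 on the PR arrays and 0.64 to 1.83 on the CH and RPE arrays. Means without both genes were not taken, so a lower level of the remaining genes on every PR array is not shown. For the other ganglion genes 8 of 16 were highest there, with means of -1.82, -1.70 and -1.89. Rod genes gave means of 3.67, 3.78 and 3.80, but saturation limits how far they could differ between PR arrays, and the 2 that were not saturated on any PR array (Pde6b and Cngb1) had means of 2.58, 2.92 and 2.53, both highest on PR replicate 2. The 8 cone genes not saturated on any PR array had means of 2.43, 2.54 and 2.53, with 4 of them highest on PR replicate 2. None of these 10 photoreceptor genes lay more than 0.5 above both other PR arrays there.

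**Figure D4:**
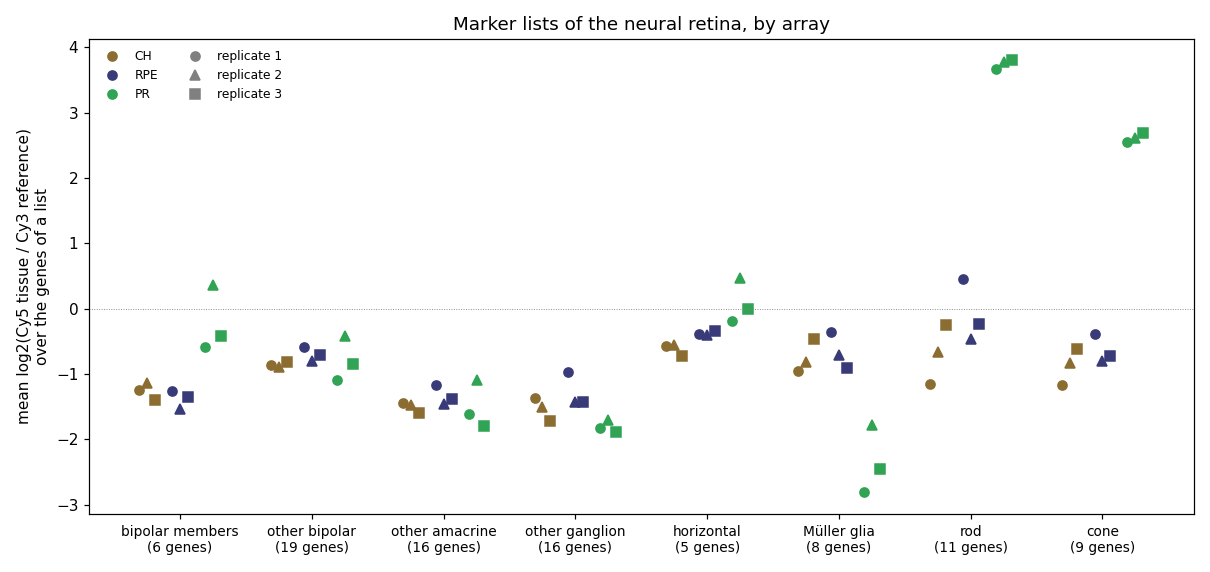
The mean log2 ratio of tissue to reference over the genes of 8 lists of retinal cell types on each array, with colours for tissues and shapes for replicate numbers. Most rod genes were saturated on a PR array, which limits how far the rod means could differ, and the cone means lay between 2.55 and 2.69. PR replicate 2 (green triangle) lay above the other PR arrays for the bipolar, amacrine, horizontal and Müller glia lists. For the ganglion list it did so by little (-1.70 against -1.82 and -1.89).

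The slides divide the arrays unevenly. PR replicate 2 was hybridised on a slide with CH replicate 2 and RPE replicate 2, the other CH and RPE arrays shared a slide, and PR replicates 1 and 3 were alone on the remaining slide. Within the slide that held all 3 tissues, with 1 array of each and so no test, PR minus RPE was 2.49 for Grm6, 2.5 for Vsx1, 2.10 for Isl1, 2.07 for Pcp2 and 1.77 for Prkca, and PR minus CH was 2.21, 1.66, 1.59, 1.88 and 1.35. With the slide as a block, 5 bipolar genes were called higher in the PR in both comparisons, Isl1 (1.88 and 1.82) and Vsx1 (2.28 and 1.88) joining Grm6, Pcp2 and Prkca, but this fit takes its PR values from PR replicate 2 alone. On the same slide Thy1 was -0.31 for PR minus RPE and -1.41 for PR minus CH, and with the slide as a block PR minus CH was -1.31 (adjusted p = 0.00619, limma) and no longer called. Slc6a9 was at -2.13 for PR minus RPE within the slide and still called with the block (-1.91, adjusted p = 0.0022). RPE minus CH could be read on 2 slides, at 0.83 and 1.51 for Slc6a9 and at -0.80 and -1.09 for Thy1.

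Across the 9 arrays, which fall into tissues and share 1 reference, Grm6 ran with Isl1 (Pearson r = 0.98), Pcp2 (0.97) and Prkca (0.97), less with Vsx1 (0.83) and hardly with the brighter Cabp5 probe (0.23). Among 19378 other named genes, the patterns most like Grm6 were those of Cdk19 (r = 0.994), 5330439K02Rik (0.993) and Ubtd1 (0.984). For Gad1 they were Kcnc2 (0.943), Nhlh2 (0.942) and Gad2 (0.934), the other glutamate decarboxylase. For Thy1 they were Scn2b (0.991), Nsg1 (0.989) and Nr1h4 (0.989).

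The promoters of the members were read in the 250 bases before the start of transcription, since several bipolar genes moved together. RefSeq promoter sequences on GRCm38.p6 were matched for 8 of the 10 genes, with 13 start sites, and Thy1 and Nefl are not among them. Both strands were searched for TAATCC, the core bound by the homeodomain factors Crx and Otx2. They were also searched for TAATTA, its own reverse complement and the core bound by many other homeodomain factors. The motifs share their first 4 letters. TAATCC was found in Cabp5, Gad1 and Isl1, and in 6.25% of 32851 promoter windows of the same length. TAATTA was found in Pcp2 and in 4.84% of the windows. These shares count windows and not genes, and a gene with several start sites had several windows. The windows of Cabp5 and Isl1 are shown, with the motif in capitals, as the bipolar genes that hold TAATCC.
Cabp5, chr7:13397983-13398012, plus strand: gaggcctcacccTAATCCctctttcaaaat
Cabp5, chr7:13398102-13398131, plus strand: taggaagagctcTAATCCctccactgtcta
Isl1, chr13:116309848-116309877, minus strand: cctcgggaggctTAATCCtctcctgcgggc
These motifs start 160, 41 and 177 bases before the start of transcription. Grm6, Pcp2 and Prkca, the bipolar genes called higher in the PR, held no TAATCC in these windows.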

How the data were processed

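Scanner output of the 9 arrays was made by the authors with Agilent Feature Extraction 9.5.3.1, per the submitters' processing notes. The deposited intensity columns used here are the unprocessed mean of a spot and the median of its surroundings. As alternatives served the software's deposited log10 ratio of Cy5 to Cy3 and the authors' log2 table of the series, which holds the Cy5 channel and whose normalization is not given in the sources used here.

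Normexp background correction (offset 50) preceded loess normalization of log2(Cy5/Cy3) within each array. Control spots and 228 to 586 outlier-marked spots per array were dropped, and the spots of a probe were averaged. A mean per tissue was fitted with limma 3.58.1 (R 4.3.3) to all 9 arrays, with empirical Bayes moderated errors and B-H adjustment over 39429 probes. The brightest probe of a gene (mean log2 Cy5) was reported. A call needed an FC above 2.5 and an adjusted p below 0.01, the thresholds of the study's methods. With 3 arrays per tissue, their number limits the precision. Python 3.11.15 with numpy 2.4.6 and pandas 2.3.3 made the tables.

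All member genes and all their probes are named. Genes of the 13 marker lists are named only where called, at most 3 a list by size of difference. Exceptions are Gnb3, Gng13, Bhlhe23, Pde6b, Cngb1 and the genes named of Müller glia and horizontal cells, which were named after their values were seen. For Grm6, Gad1 and Thy1 the 3 genes with the highest r over the 9 arrays are named. The members and lists were chosen with earlier results of these data known. Probe positions and sequences come from the deposited output and mm9, promoters from RefSeq on GRCm38.p6, and no coordinates were converted. The fit was tested on simulated data. The alternatives changed the background correction, the normalization, the channel, the arrays in the fit, blocks for replicate number or slide, the treatment of marked and dim spots, the choice of probe, the variance model, the input table and the thresholds, or left out 1 array.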

Additional observations from a re-analysis of the deposited data

How the results depend on the processing

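Each result was recomputed under 15 alternatives and with each array left out. Of the 3 genes called higher in the PR, Grm6 lost its calls with the Cy5 channel alone (adjusted p = 0.019 and 0.0227, limma) and with the authors' series table (adjusted p = 0.0178 and 0.0209), with differences between 1.55 and 1.70. With the slide as a block, the counts called higher in the PR were 5 in both comparisons, from 3, and the count called higher in the CH was 0, from 1. That count was 2 with median centring, an FC above 2 or no FC threshold, as Slc6a9 passed, and with the latter 2 genes were called higher in the RPE than PR. RPE minus CH gave 1 gene higher in the RPE with an FC above 2 or none, again Slc6a9. Isl1 was called in PR minus RPE with median centring (1.60), the scanner's log ratio (1.65), Cy5 alone (1.60) and the series table (1.63). In PR minus CH it was called with the scanner's log ratio (1.58), Cy5 alone (1.54) and the series table (1.56). Leaving out arrays gave 2 to 4 genes higher in the PR against the RPE and 0 to 4 against the CH, with 0 only without PR replicate 2.

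The differences that changed sign were all uncalled. For Gad1, PR minus RPE was 0.19 with median centring, 0.13 with the scanner's log ratio, 0.02 with Cy5 alone, 0.04 with the series table and 0.57 with the slide block. For Nefl, PR minus CH was 0.09 with the scanner's log ratio and 0.03 with the slide block. For Cabp5 it was 0.07, 0.10 and 0.09 with the scanner's log ratio, Cy5 alone and the series table, 0.33 with the slide block and 0.49 with the median of its probes, where RPE minus CH was 0.06. RPE minus CH of Pcp2 was -0.19 with median centring. With arrays left out, PR minus RPE ran from -0.49 to 0.16 for Gad1 and from -0.26 to 0.20 for Cabp5, PR minus CH from -0.41 to 0.03 for Nefl, from -0.13 to 0.52 for Gad1 and from -0.35 to 0.11 for Cabp5, and RPE minus CH from -0.17 to 0.06 for Isl1. The cause was not tested.

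Over all genes, the counts higher in the PR were 1653 and 1914 against the RPE and the CH, and 2821 and 3252 with the scanner's log ratio, where 44.1% and 43.7% of calls were higher in the PR, from 32.3% and 32.1%. With an FC above 2 they were 2775 and 3148, and with none 6106 and 6713. Those lower in the PR, 3461 and 4053, were then 6628 and 7127. For RPE minus CH, 57 genes higher in the RPE and 555 higher in the CH became 9 and 1048 with median centring, 15 and 335 with the series table, 300 and 1149 with an FC above 2 and 1525 and 2380 with none. The 57 were 18 with Cy5 alone and 15, 151 and 32 without CH replicate 2, CH replicate 3 and RPE replicate 2.

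Whether equal replicate numbers mark pairs cannot be settled from these arrays. Deviations from the tissue means correlated between -0.08 and 0.29 for arrays of 2 tissues with the same number. For arrays with unequal numbers they correlated between -0.31 and 0.25. The arrays of replicate 2 also shared a slide. With the replicate number as a block, the counts of member genes called stayed at 3 and 1 in both PR comparisons and at 0 in RPE minus CH, and Grm6 was at 1.69 and 1.60. The arrays, 3 a tissue, limit what could be detected.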

Other observations

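Horizontal cells, the interneurons that contact photoreceptors in the outer plexiform layer, were read through 5 genes (Lhx1, Onecut1, Onecut2, Prox1 and Calb1). Of these, 3 were well above background in Cy5 on all 9 arrays, Calb1 on 6 and Onecut1 on 1. None was called in any comparison, but 2 were called higher in the PR than in the CH with the scanner's log ratio (median 1.23) and 2 with the slide as a block (median 1.22). Their median difference was 0.51 for PR minus RPE, the value of Calb1, and 0.83 for PR minus CH, against 0.00 and 0.05 for all genes, and the mean of the list was -0.19, 0.47 and -0.01 on PR replicates 1, 2 and 3, between -0.72 and -0.55 in the CH and between -0.40 and -0.34 in the RPE. Without PR replicate 2 the medians were 0.11 and 0.43. In the leukocyte list, 3 of 6 genes were called lower in the PR than in the RPE and 5 lower than in the CH. Of 7 endothelial genes, 6 were called lower in the PR than in each of the other tissues and none between the RPE and the CH.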
